A study of Homo sapiens with 21 samples.

Results

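MicroRNA precursor annotations are short gene entries at the positions of microRNA hairpins, and most of them lie inside a longer gene. This account follows 334 of them through a table of messenger RNA levels. They are the entries whose symbol starts with MIR and a number (or MIRLET), whose length is under 200 bases, and whose level reached 1 FPKM (fragments per kilobase of exon, scaled to library depth) in at least 3 of 21 libraries. The table lists 1865 precursor annotations among 27142 genes, of which 1242 were at 0 in all libraries and 289 were above 0 without meeting the rule. The members were thus selected on their FPKM values, and their presence is not a finding. Just inside the rule, MIR4737, MIR130B and MIR6760 had third-highest values of 1.02, 1.02 and 1.03 FPKM. Just outside it, MIR935, MIR6511B1 and MIR1231 had 0.982, 0.973 and 0.967 FPKM.

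All libraries came from HEK 293FT, a human embryonic kidney line carrying the SV40 large T antigen, transfected with plasmids and with RNA extracted after 48 h and 3 biological replicates in each of 7 groups. A short hairpin RNA (shRNA) enters the microRNA pathway and guides Argonaute proteins to messenger RNA, whereas RfxCasR is an RNA-guided nuclease that cuts RNA and is directed by a single guide RNA (gRNA) or an array of guides. The title gives the question as the specificity of both methods. The groups were shRNA ANXA4 and shRNA B4GALNT1 with their control shRNA NT (non-targeting), RfxCasR B4GALNT1 gRNA with RfxCasR NT gRNA, and RfxCasR ANXA4 array with RfxCasR NT array. The 6 RfxCasR gRNA and 6 array libraries thus all held the nuclease, and the 9 shRNA libraries did not. Transfection is transient, so transfected and untransfected cells were sequenced together, and in such bulk libraries fewer cells of a kind and less RNA per cell cannot be told apart.

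A microRNA is cut from a hairpin in a primary transcript by DROSHA and DGCR8, exported by XPO5 and trimmed by DICER1 before an Argonaute protein takes it up. Many hairpins sit in introns or exons of protein-coding genes and are made from the same transcript. A mirtron is a hairpin whose ends are the ends of a short intron, so that splicing replaces DROSHA, and in a tailed mirtron only one end is a splice site. Libraries of messenger RNA are not built to hold mature microRNAs, and a value below is the coverage of the precursor's position in longer RNA.

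The 6 array libraries were the deepest, at 34.7 to 39.5 M reads as recovered from the smallest steps of FPKM, and the other 15 held 21.4 to 30.7 M. Against the labels, the annexin gene ANXA4 measured 6.77 to 7.22 FPKM under the label ANXA4 array, compared with 2.54 to 3.34 FPKM under the label NT array. In the authors' deposited table for this pair ANXA4 has the opposite sign, -1.21 log2, so directions between the arrays are given for the libraries as labelled. ANXA4 was lower with its shRNA, and B4GALNT1, a ganglioside synthase, was lower with its shRNA and its gRNA, as labelled. Of 10 genes listed as markers of the line, 9 passed the level rule, with a summed level of 579 to 883 FPKM per library. Endothelial and hepatocyte markers summed to at most 0.386 and 0.524 FPKM, 1 of 4 blood markers did pass, with HBB at 0 throughout, and 3 of 4 fibroblast markers passed the level rule, with sums of 7.54 to 14.95 FPKM.

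The largest class of members sat in introns directly beside an exon. Placed on GENCODE transcripts of the same strand, 156 of the 334 were intronic and touched an exon, and 152 of these touched the exon downstream. A further 38 crossed an exon edge, 47 lay wholly in exons, of which 30 were in untranslated regions, and 29 were intronic and away from exons. Another 16 were exonic in some transcripts only, 6 were partly in an exon with no transcript around them, 18 had no enclosing transcript, and 24 with several genomic copies were not assigned. Position and detection went together: among precursors inside a gene that itself passed the level rule, 155 of 177 touching an exon were members (87.6%), against 23 of 401 away from exons (5.74%). Of those in exons, 38 of 39 were members. Levels chose the members, so these shares describe the selection.

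RefSeq holds a name or sequence for 308 of the members and a hairpin for 280. The hairpins below show the position beside the splice site. All are intronic, written 5′ to 3′ from RefSeq on build GRCh38.p14, with a terminal GU (the usual start of an intron) or AG (its usual end) in capitals.
MIR6759, in CDK4, chr12:57748618-57748682, minus strand: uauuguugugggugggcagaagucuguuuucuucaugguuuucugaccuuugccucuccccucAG
MIR6728, in ENO1, chr1:8866502-8866590, minus strand: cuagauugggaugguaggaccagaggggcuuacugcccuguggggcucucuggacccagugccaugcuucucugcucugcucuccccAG
MIR6797, in RPS19, chr19:41869627-41869698, plus strand: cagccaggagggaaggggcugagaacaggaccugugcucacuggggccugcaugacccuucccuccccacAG
MIR6879, in ARL2, chr11:65018505-65018570, plus strand: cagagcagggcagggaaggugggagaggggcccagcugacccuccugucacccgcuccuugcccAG
MIR6733, in EBNA1BP2, chr1:43171652-43171712, minus strand: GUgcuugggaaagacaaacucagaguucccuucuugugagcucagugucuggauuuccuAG
MIR4745, in PTBP1, chr19:804940-805001, plus strand: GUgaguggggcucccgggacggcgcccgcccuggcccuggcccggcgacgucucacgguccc
MIR25, in MCM7, chr7:100093560-100093643, minus strand: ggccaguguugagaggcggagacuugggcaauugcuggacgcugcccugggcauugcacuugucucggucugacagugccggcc

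The first 4 carry the intron's last bases only, MIR6733 carries both ends, MIR4745 carries the first bases only, and MIR25, which lies away from exons, carries neither. Among members touching the downstream exon, 136 of 137 hairpins ended in AG (99.3%), and 21 of these 137 also began with GU. No member among 20 away from exons and none among 40 in exons ended in AG. Over all members 154 of 280 did (55.0%), against 105 of 1223 other precursors of the table (8.59%). The terminal AG follows from lying at the end of an intron and describes the same property as the position. Median GC content was 61.3% in members and 49.4% in the other precursors.

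Mature sequences of the members that the comparisons turn on are shown with the seed (bases 2 to 8), the stretch that pairs with targets, in capitals.
hsa-miR-4707-5p, in HAUS4, chr14:22956998-22957020, minus strand: gCCCCGGCgcgggcggguucugg
hsa-miR-4745-5p, in PTBP1, chr19:804941-804963, plus strand: uGAGUGGGgcucccgggacggcg
hsa-miR-1181, in CDC37, chr19:10403505-10403525, minus strand: cCGUCGCCgccacccgagccg
hsa-miR-6759-3p, in CDK4, chr12:57748618-57748639, minus strand: uGACCUUUgccucuccccucag
hsa-miR-3198, in CBX5, chr12:54231407-54231428, minus strand: gUGGAGUCcuggggaauggaga
hsa-miR-198, in FSTL1, chr3:120395703-120395724, minus strand: gGUCCAGAggggagauagguuc
hsa-miR-3654, in CHCHD3, chr7:133034860-133034878, minus strand: gACUGGACaagcugaggaa
hsa-miR-658, chr22:37844287-37844311, minus strand: gGCGGAGGgaaguagguccguuggu
hsa-miR-4426, at its RefSeq position chr1:192716333-192716349, plus strand: gAAGAUGGacguacuuu

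These 9 seeds all differ from one another. Across the 483 mature names of the members there were 456 distinct seeds, and 25 seeds were shared by at least 2 names. One is AAGAUGG, shared by hsa-miR-4426 and hsa-miR-4647. The most widely shared, GGGGGAG (hsa-miR-4723-5p, hsa-miR-6870-5p and hsa-miR-7111-5p) and UGGGGUG (hsa-miR-6737-5p, hsa-miR-6812-5p and hsa-miR-6819-5p), had 3 names each.

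Levels ran over 3 orders and were mostly low. The median member had a mean of 4.19 FPKM and 8.05 recovered reads per library, 187 members had under 10 reads, and 27 had 100 or more. A mean of 100 FPKM or more was reached by 11 members, and 69 had a mean under 1 FPKM. At least 1 FPKM was measured in all 21 libraries for 158 members and in exactly 3 libraries for 13, beside 28 precursors at that level in exactly 2. Over the 21 libraries the highest means were those of MIR4426 (885 FPKM), MIR3654 (794 FPKM), MIR6087 (555 FPKM), MIR6728 (333 FPKM) and MIR6797 (281 FPKM). MIR4426 is placed in RPS27A, a ubiquitin-ribosomal protein fusion gene, and has 3 copies in the table, and MIR3654 has 2, so reads of these may come from elsewhere.

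An enclosing gene on the same strand was found for 292 members, in 277 distinct hosts, and 291 of these members had a host that passed the level rule. In 13 hosts there were several members, up to 4. The host with 4 is PTMA, with MIR1244-1, MIR1244-2, MIR1244-3 and MIR1244-4. These are copies with the same or nearly the same values, and so are MIR4444-1 and MIR4444-2 in HNRNPA3 and MIR4315-1 and MIR4315-2 in PLEKHM1. Such entries are not separate measurements within a host. Over the means of all libraries, exonic members stood near the level of their host. The median ratio of member to host FPKM was 0.996 over 38 members, with quartiles of 0.794 and 1.21. Members crossing an exon edge had a median ratio of 0.303 (n = 36), and intronic members touching an exon had 0.201 (n = 155, quartiles 0.149 and 0.278). Intronic members away from exons had 0.073 over the means of all libraries (n = 23). Per library, the median ratio of these 23 was 0.0024 to 0.0063 in libraries labelled ANXA4 array, 0.0185 to 0.0221 in those labelled NT array and 0.0224 to 0.1099 in the other 15. For the 38 exonic members it was 0.7166 to 0.7713, 0.7843 to 0.8807 and 0.8706 to 1.0792 in the same order of libraries. For the 155 touching an exon it was 0.1845 to 0.2038, 0.1742 to 0.191 and 0.177 to 0.2143. Ratios of members away from exons rest on few reads: the median level of all 29 in this class was 0.808 FPKM, and MIR7-1 had 0 to 6 reads per library. Some, such as MIR5587 and MIR641 (at most 0.555 and 0.583 FPKM in array libraries), met the level rule only through the other 15. Their low array ratios are thus partly set by the selection. Reads in an exonic member are also reads of the host's exon, so the values of such a pair are not independent.

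**Figure D1:**
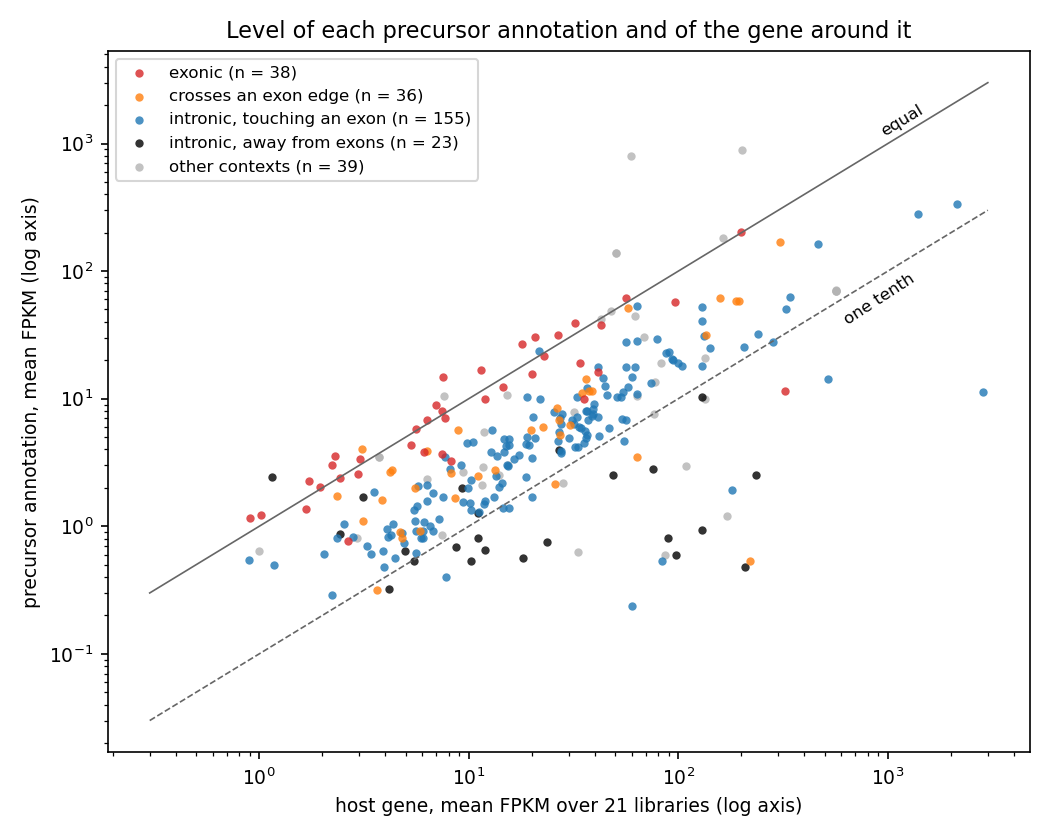
Mean FPKM over 21 libraries of each precursor annotation (vertical, log axis) against its host gene (horizontal, log axis), 1 point per pair, coloured by position, with lines where the levels are equal and, lower, at a fixed ratio of 1 to 10. Exonic precursors lie along the line of equal levels (median ratio 0.996), those touching an exon lie near a ratio of 0.201, and those away from exons lie lowest (0.073).

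Single genes showed the same spread. MIR3652, exonic in the chaperone gene HSP90B1, had 201 FPKM against 199.6 FPKM for its host, whereas MIR6728 had 333 FPKM inside ENO1, a glycolytic enolase at 2139 FPKM. MIR25, an oncogenic microRNA, was at 0.942 to 4.26 FPKM within MCM7, a subunit of the replicative helicase at 209 to 264 FPKM. MIR7-1, made from an intron of HNRNPK, was at 0 to 1.39 FPKM, with the host at 193 to 225 FPKM. MIR3652, MIR25, MIR7-1 and the hairpin of MIR6733 were chosen after their values were seen.

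With the ANXA4 shRNA, the called precursors mostly lay in hosts that were called too: MIR1181 and MIR6728 were higher than in NT shRNA libraries, and MIR6759, MIR3610 and MIR3917 were lower. In all, 50 of 334 members were called (limma, Benjamini-Hochberg adjusted p under 0.05), 18 higher and 32 lower. The background in this comparison was 51.8% of all 13679 genes tested, so the members' share of 14.97% lay below it (69 members and 56.8% of genes had an unadjusted p under 0.05). Their median change was -0.02 log2, against -0.01 over all genes (changes are on the log2(FPKM + 1) scale, which understates those of low genes). Of the 46 called members with a tested host, 43 had a called host, 41 of them in the same direction and 2 in the opposite one. Among other genes with at least 100 mean reads, 56.6% were called in this comparison. Reads of exonic members are also reads of their hosts, so like directions are partly built in.

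MIR1181 (hg19 chr19:10514134-10514214) overlaps an exon of CDC37, a co-chaperone that brings kinases to HSP90. It had 174, 181 and 177 FPKM with the ANXA4 shRNA, against 104, 91.8 and 97.4 FPKM with the NT shRNA. The groups did not overlap, being 0.85 log2 apart (SE 0.066, limma adjusted p = 2.91e-09). CDC37 changed by 0.79 log2 (limma adjusted p = 6.93e-13).

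MIR6759 (hg19 chr12:58142401-58142465) lies in an intron of CDK4, the G1 cyclin-dependent kinase, against the exon downstream. It had 17.8, 22.7 and 25.6 FPKM with the ANXA4 shRNA, against 47.7, 39.2 and 46.7 FPKM with the NT shRNA. All 3 ANXA4 shRNA libraries were below all 3 NT shRNA libraries, the change being -0.99 log2 with an SE of 0.135 (limma adjusted p = 5.15e-06). CDK4 itself averaged 64.4 ± 3.10 FPKM with the ANXA4 shRNA and 136 ± 6.58 FPKM with the NT shRNA (SD, n = 3 each; -1.06 log2, limma adjusted p = 1.69e-11).

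MIR3610 (hg19 chr8:117886967-117887039) lies in an exon of RAD21, a cohesin subunit, in its untranslated region. It had 45.8, 42.9 and 55.9 FPKM with the ANXA4 shRNA, against 105, 112 and 109 FPKM with the NT shRNA, with no overlap. Its difference of -1.16 log2 (SE 0.203, limma adjusted p = 8.75e-05) stood beside -1.22 log2 for RAD21 (limma adjusted p = 1.62e-15). MIR3917, across an exon edge of STMN1, a microtubule destabiliser, averaged 144 ± 24.6 FPKM with the ANXA4 shRNA and 204 ± 11.5 FPKM with the NT shRNA (-0.51 log2, limma adjusted p = 9.58e-05).

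MIR6728 had 376, 379 and 366 FPKM with the ANXA4 shRNA, against 276, 292 and 281 FPKM with the NT shRNA. This separated the groups at 0.40 log2 (SE 0.045, limma adjusted p = 5.03e-07), and ENO1 changed by 0.41 log2. MIR4745 (hg19 chr19:804940-805001), in an intron of the splicing repressor PTBP1, was far thinner in reads. It had 4.01, 2.30 and 2.17 FPKM with the ANXA4 shRNA, against 0, 0 and 0.709 FPKM with the NT shRNA, and 0 to 18 recovered reads per library in the whole series. Its change of 1.65 log2 (SE 0.557, limma adjusted p = 0.0186) was no longer called without replicate 1 or 2 of the NT shRNA, without replicate 1 of the ANXA4 shRNA, or with all genes in the model. PTBP1 changed by 0.59 log2 (limma adjusted p = 5.21e-13).

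**Figure D2:**
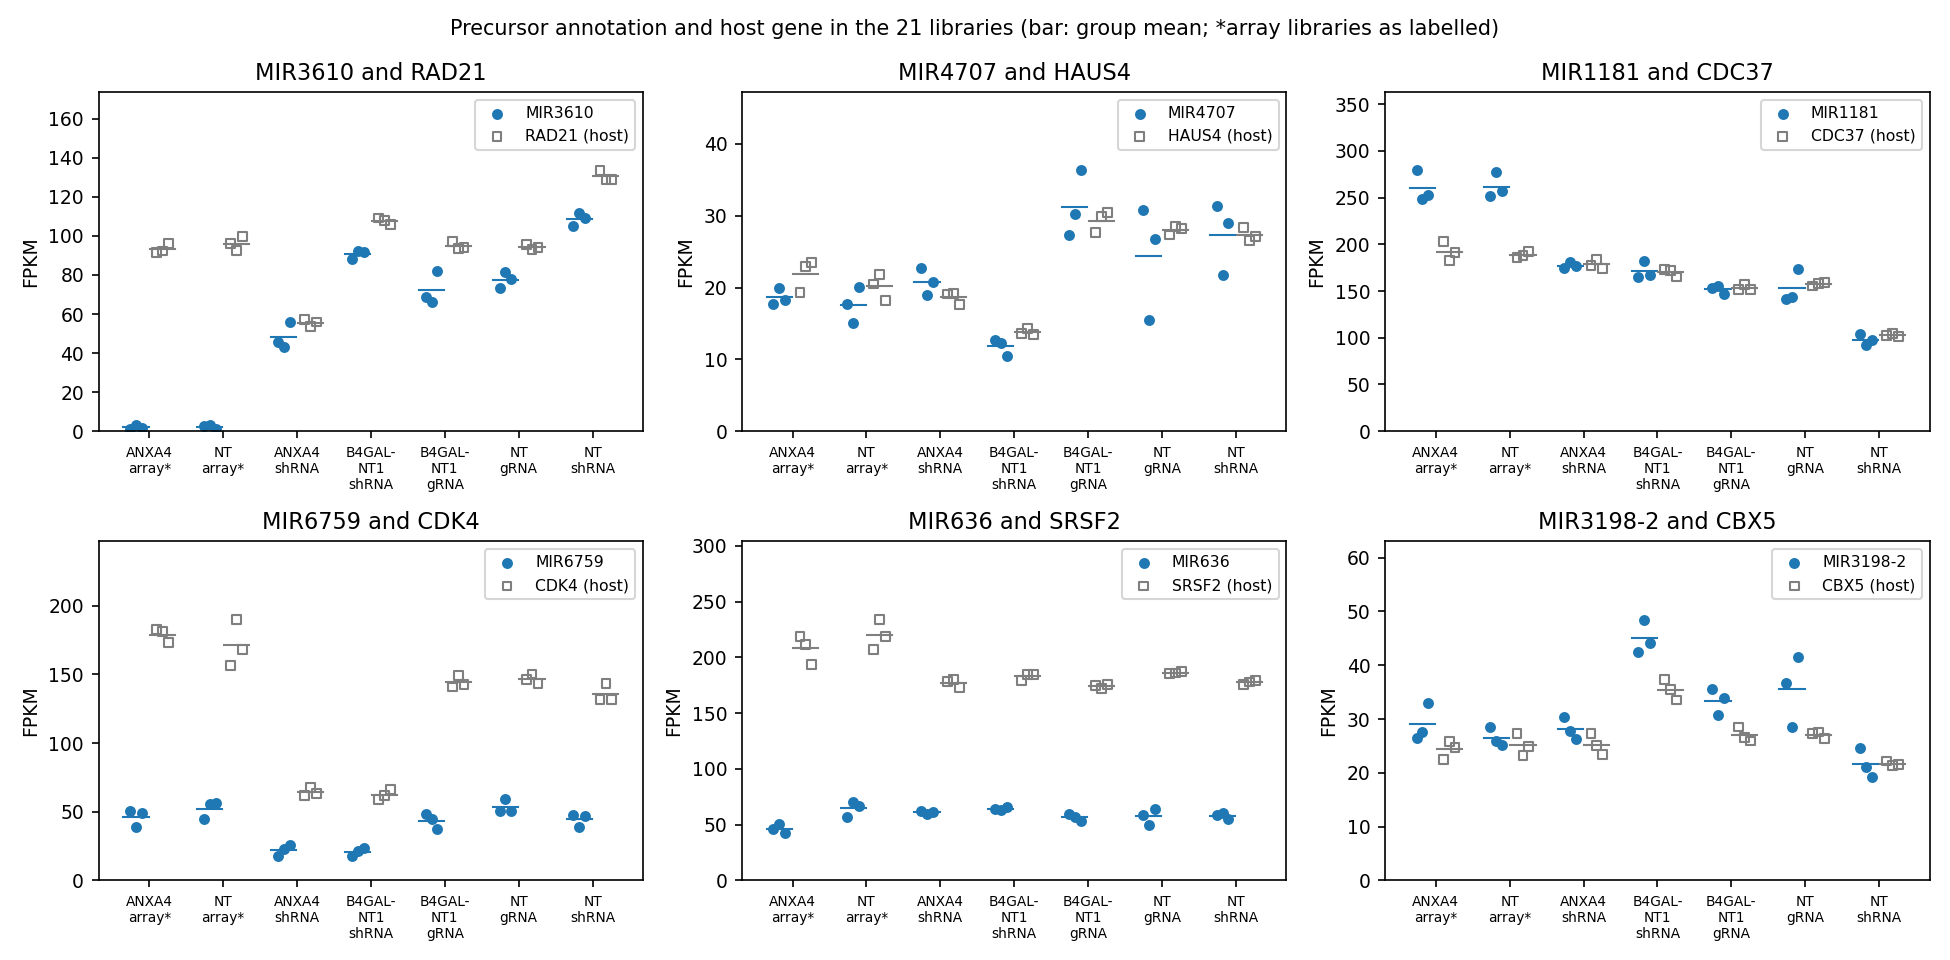
FPKM of 6 precursor annotations (filled circles) and their hosts (open squares) in each library, with bars at group means (n = 3 each) and array libraries as labelled. MIR1181, MIR6759, MIR3198-2 and MIR4707 go up and down with their hosts among the shRNA groups, and MIR3610 is at 1.19 to 3.40 FPKM in the array libraries while RAD21 is at 91.3 to 99.7 FPKM there.

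In 2 members the precursor moved apart from its host with the ANXA4 shRNA, of 291 pairs tested, where 7.86% of all 751 nested gene pairs were called (13 members and 14.6% of pairs at an unadjusted p under 0.05). MIR3654 had 698, 653 and 738 FPKM with the ANXA4 shRNA, against 888, 890.5 and 835 FPKM with the NT shRNA. Its host CHCHD3, of the mitochondrial cristae-organising complex, had 69.7, 65.6 and 64.2 FPKM with the ANXA4 shRNA, against 55.1, 53.7 and 52.5 FPKM with the NT shRNA. The precursor was lower and the host higher, without overlap in either, and the difference between their changes was -0.63 log2 (SE 0.107, limma adjusted p = 0.00114). MIR6721, in the acyltransferase gene AGPAT1, differed by -0.51 log2 from its host (SE 0.147, limma adjusted p = 0.0448), a call lost with a replicate block or when any of several libraries was left out. MIR3654 has 2 copies and MIR6721 has 7, and the part of reads from other copies was not tested.

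The number of members called depended on the model. With voom on the recovered reads 27 were called, and with only the ANXA4 and NT shRNA groups in the model 81 were. The authors' deposited table for this comparison lists 174 members, of which 13 are under an adjusted p of 0.05, 5 higher and 8 lower, where 45.1% of its genes are. MIR1244-1, MIR1244-2 and MIR1244-3 were all called lower, but their values, noticed after they were seen, are identical in every library, so they are 1 measurement. MIR1244-4 had nearly the same mean (71.6 FPKM, against 70.3 FPKM), and so did MIR4444-1 and MIR4444-2 (137.9 and 138.0 FPKM). Every count here takes such entries as separate members.

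With the B4GALNT1 shRNA, MIR3198-2 and MIR6879 were higher than in the same NT shRNA libraries and MIR4707 and MIR6759 were lower, again beside their hosts. There were 31 called members, 9 higher and 22 lower (limma), a share of 9.28% where the background was 44.4% (51 members and 51.0% of genes had an unadjusted p under 0.05). With each library centred on its median, 28 were called, 12 higher and 16 lower. The median change was -0.06 log2, against -0.04 over all genes. Of 29 called members with a tested host, 24 had a called host, where 48.7% of other genes with at least 100 mean reads were called. Of these 24, 23 had a host in the same direction. MIR3654 was the one in the opposite direction, with a limma adjusted p of 0.0497 that was above 0.05 under 20 alternatives, among them voom, a replicate block and leaving out any 1 of the 3 B4GALNT1 shRNA libraries.

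MIR4707 (hg19 chr14:23426159-23426238) lies in the untranslated part of an exon of HAUS4, a subunit of the augmin complex that branches spindle microtubules. It had 12.7, 12.3 and 10.5 FPKM with the B4GALNT1 shRNA, against 31.3, 21.7 and 29.0 FPKM with the NT shRNA. The groups did not overlap (-1.13 log2, SE 0.180, limma adjusted p = 4.17e-05), and HAUS4 changed by -0.94 log2 (limma adjusted p = 1.32e-09). MIR3198-2 (hg19 chr12:54625181-54625260), in an untranslated exon of CBX5, which encodes heterochromatin protein 1 alpha, had 42.4, 48.5 and 44.1 FPKM with the B4GALNT1 shRNA, against 24.5, 21.2 and 19.2 FPKM with the NT shRNA. That rise was 1.03 log2 (SE 0.113, limma adjusted p = 5.23e-07), with CBX5 at 0.68 log2.

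Side by side, the comparisons with the ANXA4 and B4GALNT1 shRNAs share their 3 NT shRNA libraries, so like values in both are not independent. MIR1181 had 165, 182 and 167 FPKM under this second shRNA, a change of 0.80 log2 with an SE of 0.066 (limma adjusted p = 1.17e-08). MIR6759 had 17.8, 21.3 and 23.3 FPKM with this shRNA, a change of -1.06 log2 (SE 0.135, limma adjusted p = 3.23e-06), and CDK4 was at 58.8, 61.9 and 66.1 FPKM. MIR3917 changed by -0.54 log2 (SE 0.090, limma adjusted p = 6.71e-05). MIR3610 was not called, with 88.3, 92.4 and 91.5 FPKM (-0.26 log2, limma adjusted p = 0.323), although its host RAD21 was (-0.27 log2, limma adjusted p = 1.62e-06).

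No member was called apart from its host with the B4GALNT1 shRNA (limma; 19 of 291 at an unadjusted p under 0.05, where 14.4% of all 751 pairs were and 6.79% were called after adjustment). With voom 13 members were called, and with only the 2 shRNA groups in the model 61 were. Of 174 members listed in the authors' deposited table for it, 9 are under an adjusted p of 0.05, 6 higher and 3 lower, where 39.0% of its genes are.

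The controls of the 2 methods also differed. In RfxCasR NT gRNA libraries against NT shRNA libraries, 33 members were called (limma), 20 higher and 13 lower, a share of 9.88% beside a background of 48.9% (52 members and 54.7% of genes had an unadjusted p under 0.05). With each library centred on its median, 34 were called, 24 higher and 10 lower. This comparison rests on the same 3 NT shRNA libraries. MIR1181, MIR3198-2, MIR198, MIR6728 and MIR6879 had the smallest p-values, all higher in NT gRNA libraries. Of 32 called members with a tested host, 24 had a called host, where 52.9% of other genes with at least 100 mean reads were called. Of these 24, 22 had a host in the same direction.

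MIR198 (hg19 chr3:120114515-120114576) lies in the untranslated region of FSTL1, a secreted glycoprotein of the follistatin family. It had 62.5, 57.6 and 73.8 FPKM in NT gRNA libraries, against 42.6, 26.7 and 32.6 FPKM in NT shRNA libraries. The groups did not overlap (0.93 log2, SE 0.155, limma adjusted p = 7.50e-05), and FSTL1 changed by 1.03 log2 (limma adjusted p = 2.40e-13). MIR6879, in an intron of the small GTPase gene ARL2 against the exon downstream, had 41.9, 34.6 and 29.9 FPKM in NT gRNA libraries, against 21.6, 21.7 and 11.3 FPKM in NT shRNA libraries. Its change was 0.97 log2 (SE 0.194, limma adjusted p = 0.000437), with ARL2 at 0.85 log2.

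MIR1181 stood at 142, 144 and 173 FPKM in NT gRNA libraries (0.64 log2, SE 0.066, limma adjusted p = 3.23e-07). MIR3198-2 stood at 36.7, 28.5 and 41.6 FPKM (0.68 log2, SE 0.113, limma adjusted p = 6.46e-05). For MIR1181, MIR3198-2, MIR198, MIR6728 and MIR6879 the NT shRNA group had the lowest mean of all 7 groups. They were picked by smallest p in this comparison and all were higher than in NT shRNA libraries, so a low NT shRNA mean is partly built in. No member was called apart from its host (limma; 17 at an unadjusted p under 0.05, where 17.3% of all pairs were and 7.46% were called after adjustment). With voom 11 members were called, and with only the 2 control groups in the model 67 were.

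**Figure D3:**
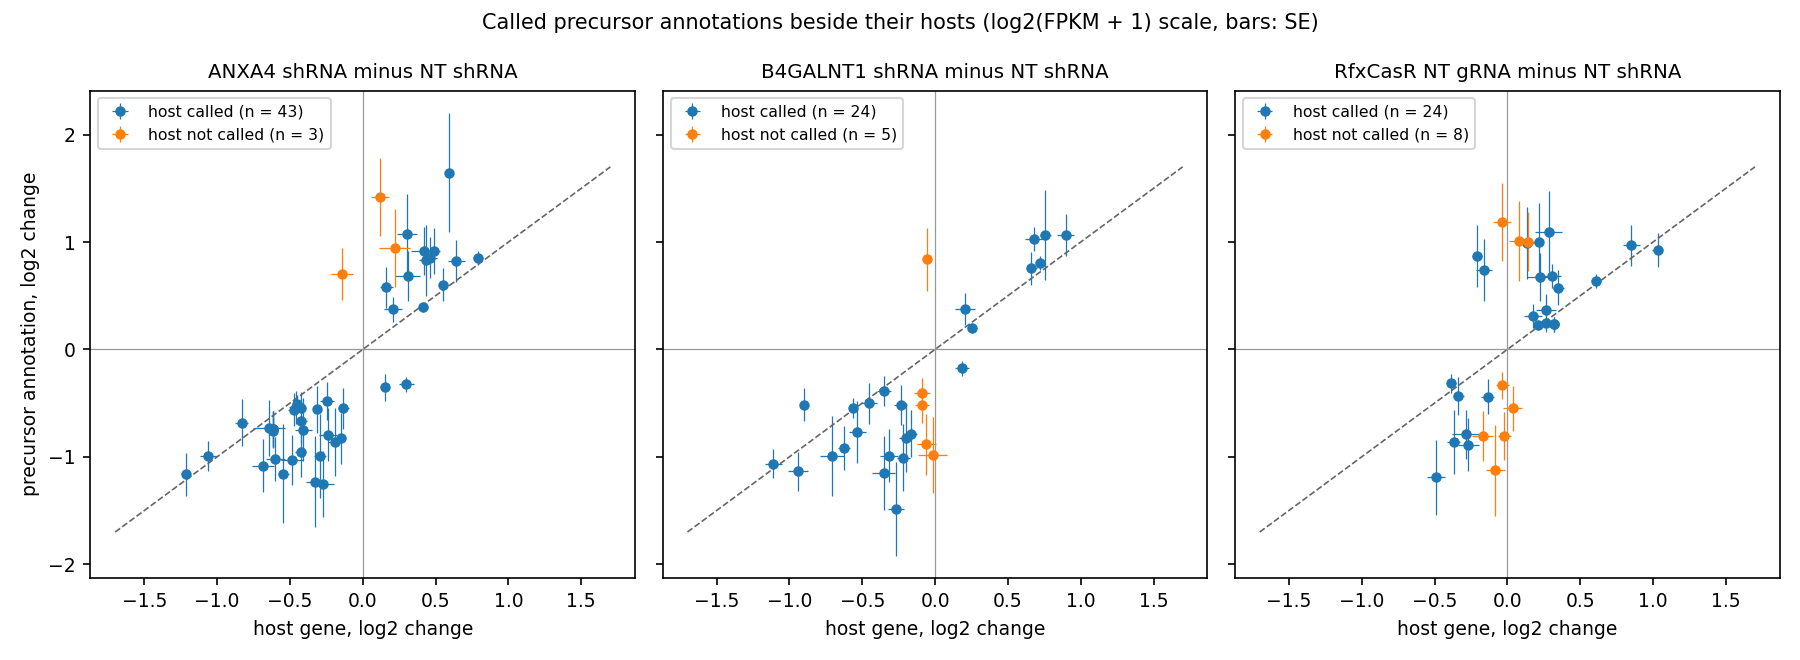
Log2 change of each called precursor annotation (vertical) against that of its host (horizontal) in 3 comparisons, with SE bars, a line of equal change, and colours for a called or not called host. In the ANXA4 shRNA panel 41 of 46 points have a called host in the same direction, in the B4GALNT1 shRNA panel 23 of 29, and in the NT gRNA panel 22 of 32.

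With the B4GALNT1 gRNA no member was called against NT gRNA libraries (limma; 0 with voom), where the background was 0.00731%, which is B4GALNT1 itself. An unadjusted p under 0.05 (limma) was found for 26 of 334 members, and for 523 of all 13679 genes (3.82%). MIR4707 had 27.2, 30.2 and 36.3 FPKM with the B4GALNT1 gRNA, against 30.8, 15.5 and 26.7 FPKM with the NT gRNA. These ranges overlapped, and the difference of 0.39 log2 (SE 0.180) had a limma adjusted p of 1.00. MIR3610 averaged 72.3 ± 8.37 FPKM with the B4GALNT1 gRNA and 77.5 ± 4.34 FPKM with the NT gRNA (SD, n = 3 each), MIR636 averaged 56.5 ± 3.08 FPKM and 57.5 ± 7.35 FPKM, and MIR1181 averaged 152 ± 4.59 FPKM and 153 ± 17.6 FPKM in the same order of groups. No member was called apart from its host either (limma; 11 at an unadjusted p under 0.05, where 3.06% of all 751 pairs were and 0.0% were called after adjustment).

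Between the arrays, 2 members were called, both lower in the libraries labelled ANXA4 array (limma), a share of 0.6% where the background was 0.285%, or 0.139% for genes called lower (37 members and 10.8% of genes had an unadjusted p under 0.05). MIR636 (hg19 chr17:74732532-74732630) crosses an exon edge of SRSF2, a splicing factor of the SR family. It had 45.9, 50.3 and 42.9 FPKM in libraries labelled ANXA4 array, against 57.2, 70.5 and 66.5 FPKM in those labelled NT array. The groups did not overlap (-0.47 log2, SE 0.080, limma adjusted p = 0.0125). SRSF2 had 219, 211 and 194 FPKM in libraries labelled ANXA4 array, against 207, 234 and 218 FPKM in those labelled NT array, which overlapped, and the member differed from its host by -0.40 log2 (SE 0.077, limma adjusted p = 0.0343).

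MIR636 was the only member called apart from its host between the arrays, where 0.533% of all pairs were called. At an unadjusted p under 0.05 there were 24 members and 8.66% of pairs (limma). The call of MIR636 apart from its host was lost under 9 alternatives. Among them were a replicate block, leaving out any NT array library, and leaving out replicate 1 or 3 of the libraries labelled ANXA4 array. MIR658 had 2.60, 2.20 and 4.09 FPKM in libraries labelled ANXA4 array, against 4.91, 5.30 and 6.99 FPKM in those labelled NT array (-0.78 log2, SE 0.146, limma adjusted p = 0.0221). Neither MIR636 nor MIR658 was called with only the 2 array groups in the model, which gave 0 members, nor with voom, which called 2 other members. The call of MIR636 was also lost without replicate 3 of the libraries labelled ANXA4 array. That of MIR658 was lost without replicate 3 of the NT array, or replicate 1 or 2 of the libraries labelled ANXA4 array. Leaving out replicate 3 of the NT array left 1 called member, and leaving out replicate 2 gave 4. The authors' deposited table for the arrays lists 333 members and has 0 under an adjusted p of 0.05, with MIR636 at 0.50 log2 and MIR658 at 0.95 log2, the opposite sign.

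Over the 7 groups together, 183 of the 334 members differed (limma moderated F test, adjusted p under 0.05; 54.8%), where the background was 89.5% of genes. Without the 6 array libraries 114 members did. The 6 array libraries were set beside the other 15 without a test. In the arrays 44 members (13.2%) were lower by at least 1 log2, against 79 of all 13679 genes (0.578%). Higher by as much were 6 members (1.8%), against 36 of all genes (0.263%). Both counts for all genes include the members. The 44 also count copies of nearly the same values separately: MIR1244-1, MIR1244-2, MIR1244-3 and MIR1244-4, MIR3648-1 with MIR3648-2, and MIR3687-1 with MIR3687-2. These shares are not matched for depth: 187 members had under 10 mean reads, against 156 of all other genes tested. MIR6813 and MIR718 were at 0 FPKM in all 6 array libraries and met the level rule only through other libraries. So did further members, among them MIR6865, MIR3606 and MIR6751, with at most 0.895, 0.891 and 0.931 FPKM in array libraries. Shares and medians of low array levels, here and below, are thus partly set by the selection. The median change was -0.24 log2 for members and -0.06 log2 for all genes. Members touching an exon had a median of -0.23 log2, and their 155 hosts had -0.24 log2. Members crossing an exon edge had -0.23 log2, and their 36 hosts had -0.19 log2. For exonic members and their hosts the medians were -0.23 and -0.13 log2, and away from exons they were -0.30 and -0.17 log2. In 2 classes members and hosts went apart. Members not assigned had -0.22 log2, and their 23 hosts had 0.015 log2. The 6 members partly in an exon had -0.95 log2, and the 2 hosts among them had 0.29 log2. Depth differed with the same split, and the array construct and whatever else set these 6 libraries apart cannot be told apart.

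MIR3610 had the largest such difference among members. It had 1.19, 3.40 and 1.76 FPKM in libraries labelled ANXA4 array and 2.78, 3.07 and 1.20 FPKM in those labelled NT array, against 42.9 to 112 FPKM in the other 15. RAD21 was at 91.3 to 99.7 FPKM in the array libraries and at 53.5 to 134 FPKM in the others, so the host lay within the range of the other libraries and the exonic precursor far below it. MIR3610 counted 3 to 184 reads per library.

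Of the 42 members for which the table held no enclosing gene, 15 were lower by at least 1 log2 in the arrays and 0 higher by as much, with a median of -0.50 log2. On GENCODE transcripts some of these do lie in genes: MIR6805 in exons of RPL28, MIR639 partly in an exon of TECR and MIR658 in exons of ANKRD54 in some transcripts. MIR6087, on chromosome X, had 39.7 to 166 FPKM in the 6 array libraries and 410.5 to 1076 FPKM in the other 15. MIR6805 had 27.2 to 42.4 FPKM in array libraries, against 77.5 to 135 FPKM in the others, and MIR639 had 43.4 to 66.9 FPKM, against 90.3 to 132 FPKM. MIR658 was at 2.20 to 6.99 FPKM, against 14.6 to 23.2 FPKM. None of these ranges overlapped between array and other libraries. The 15 lower members include MIR3648-1 with MIR3648-2 and MIR3687-1 with MIR3687-2, which had nearly the same values within each pair.

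**Figure D4:**
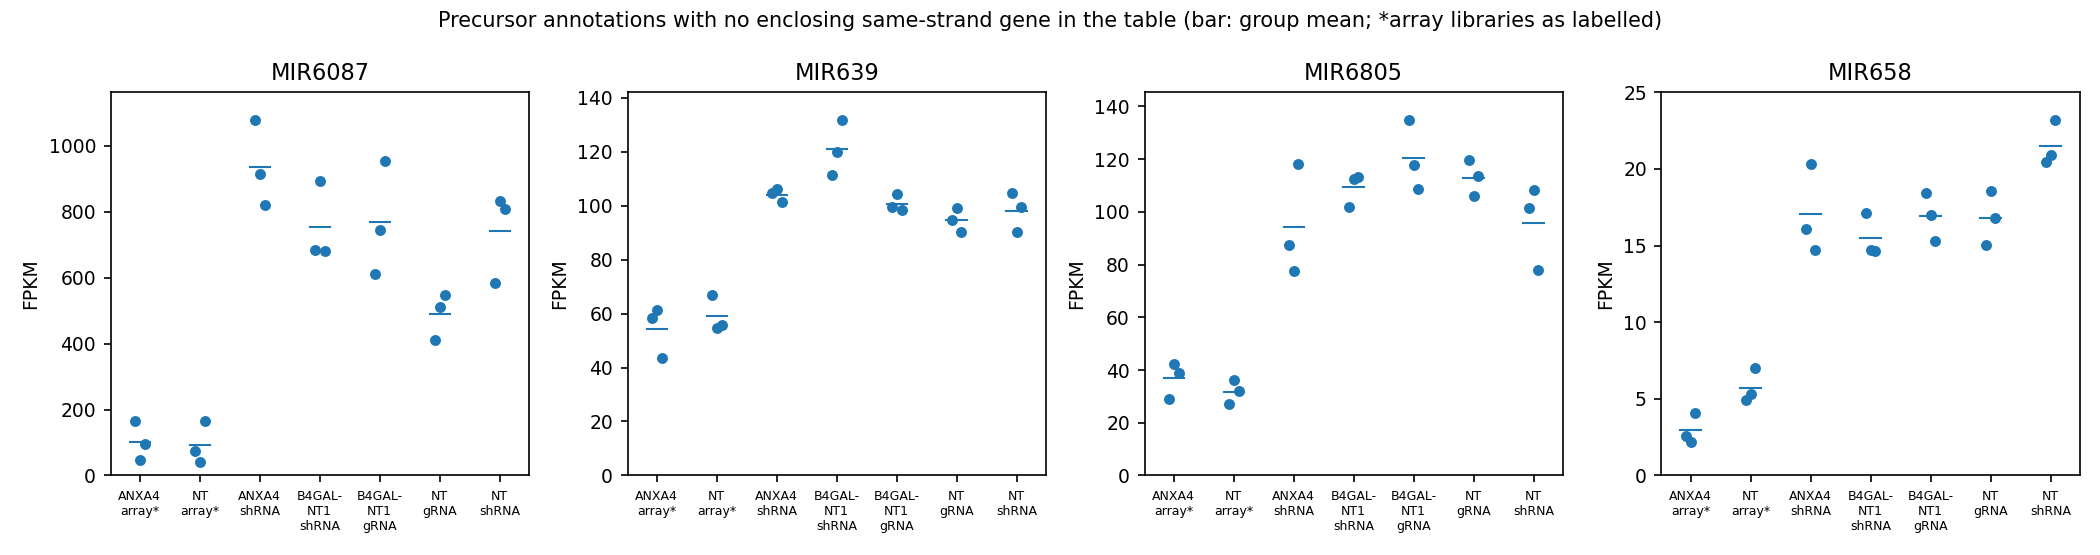
FPKM in each library of MIR6087, MIR639, MIR6805 and MIR658, which have no enclosing same-strand gene in the table, with bars at group means (n = 3 each) and array libraries as labelled. In all 4 panels the 6 array libraries lie below the other 15.

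A few further members were chosen after their values were seen. MIR3687-1 was at 0 to 2.39 FPKM in array libraries, against 9.07 to 32.6 FPKM in the others, and the neighbouring MIR3648-1 at 0.566 to 3.04 FPKM, against 9.68 to 28.6 FPKM. Of the 156 intronic members touching an exon, 12 were lower and 5 higher by at least 1 log2 in the arrays, with a median of -0.23 log2, and the examples here are of higher ones. MIR6747, in the elongation factor gene EEF1G, had 244 to 349 FPKM in array libraries, against 87.3 to 129 FPKM in the others, while EEF1G was at 436 to 474 FPKM, against 402 to 520.1 FPKM. MIR6797, in the ribosomal protein gene RPS19, had 379 to 431 FPKM, against 190.0 to 276 FPKM. MIR4426, whose position was not assigned, had 1246 to 1395 FPKM, against 631 to 765 FPKM.

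Medians of the change were negative in every position class, between -0.95 and -0.16 log2, whereas sums of FPKM, which are led by their few highest members, ran both ways. The 47 exonic members summed to 593 to 663 FPKM in array libraries, against 746 to 836 FPKM in the other 15. The 18 members with no enclosing transcript summed to 75.3 to 197 FPKM, against 489 to 1193 FPKM. The 156 intronic members touching an exon summed to 2294 to 2458 FPKM, against 1817 to 2030 FPKM. The 29 away from exons summed to 55.7 to 85.4 FPKM, against 126 to 186 FPKM.

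The share of members called was higher at greater read depth. Of the 27 members with at least 100 mean reads, 10 were called with the ANXA4 shRNA (37.0%), against 56.6% of 11870 other genes of that depth. Of the 187 members under 10 reads, 18 were called (9.63%), against 12 of 156 other genes (7.69%). With the B4GALNT1 shRNA the shares were 25.9% of members and 48.7% of other genes at 100 reads or more, and 3.74% and 7.05% under 10 reads.

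**Figure D5:**
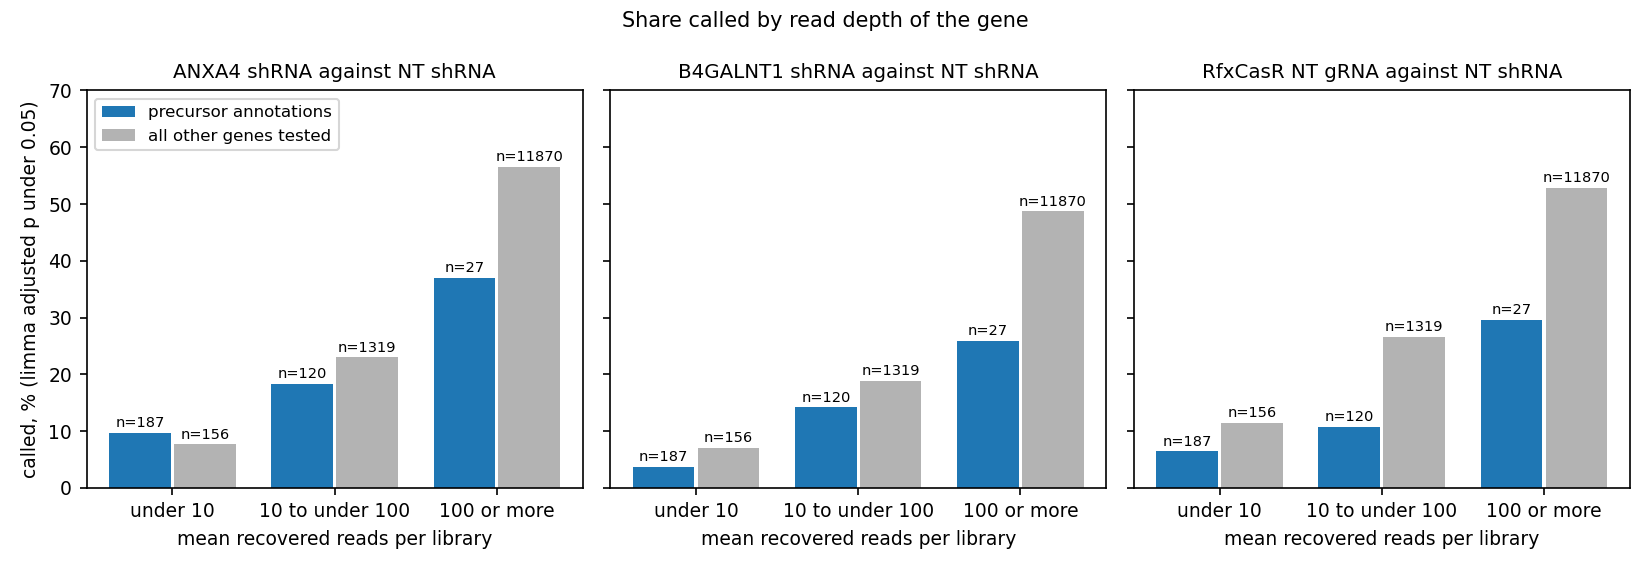
Share of precursor annotations (blue) and of all other genes tested (grey) called in 3 comparisons (limma adjusted p under 0.05), by mean recovered reads per library, with the number of genes above each bar. Shares rise with depth in both sets, and at 100 reads or more the bars for precursors, at 37.0%, 25.9% and 29.6%, stand below those of other genes, at 56.6%, 48.7% and 52.9%.

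The genes that make and use microRNAs were measured far more deeply. Of 22 tested genes of this list, 7 were higher and 7 lower with the ANXA4 shRNA (limma; list median 0.01 log2, against -0.01 over all genes), where 25.6% of all genes were higher and 26.3% lower. AGO1, one of the Argonaute proteins, had the smallest p, at 3.78 ± 0.297 FPKM with the ANXA4 shRNA and 11.4 ± 0.486 FPKM with the NT shRNA (-1.38 log2, SE 0.051, limma adjusted p = 8.33e-14). LIN28B, which blocks let-7 maturation, averaged 34.8 ± 1.62 FPKM with the ANXA4 shRNA and 19.9 ± 1.48 FPKM with the NT shRNA (0.78 log2, limma adjusted p = 2.05e-10). DICER1 changed by 0.54 log2 and XPO5 by 0.33 log2.

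With the B4GALNT1 shRNA 5 of these genes were higher and 7 lower, where 18.4% and 26.0% of all genes were. DICER1 averaged 15.7 ± 0.930 FPKM with this shRNA and 9.88 ± 0.629 FPKM with the NT shRNA (0.62 log2, SE 0.054, limma adjusted p = 2.86e-08). XPO5 changed by -0.37 log2, opposite to its change with the ANXA4 shRNA, KHSRP, a precursor-binding protein, by 0.28 log2 and LIN28B by 0.37 log2. In NT gRNA libraries against NT shRNA libraries, 3 were higher and 13 lower, where 22.4% and 26.5% of all genes were, with a list median of -0.15 log2, against -0.02 over all genes. KHSRP changed by 0.27 log2, AGO1 by -0.35, TNRC6C, an Argonaute partner, by -0.49 and AGO3 by -0.54. With the B4GALNT1 gRNA and between the arrays 0 of the 22 were called (limma).

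Dedicated microRNA host transcripts, named MIR with a number and HG, were low. Of 11 tested, 1 was higher and 3 were lower with the ANXA4 shRNA (limma), where 51.8% of all genes were called. MIR600HG averaged 2.26 ± 0.226 FPKM with the ANXA4 shRNA and 1.32 ± 0.145 FPKM with the NT shRNA (0.49 log2, limma adjusted p = 0.000631). MIR4697HG averaged 1.78 ± 0.0396 FPKM and 2.48 ± 0.0399 FPKM in the same order (-0.32 log2, limma adjusted p = 0.000448), and MIR4697, the precursor in its exon, named after its values were seen, was called lower too. MIR503HG changed by -0.58 log2 with each shRNA, against the same NT shRNA libraries, and MIR4458HG by -0.29 log2 with the ANXA4 shRNA. In NT gRNA libraries MIR600HG was higher than in NT shRNA libraries (0.39 log2) and MIR924HG was lower (-0.24 log2). MIR17HG, the transcript of the miR-17-92 cluster, averaged between 1.60 and 2.41 FPKM over the 7 groups and was not called in any of the 5 pairwise comparisons, while its adjusted p over the 7 groups was 0.0371 (limma moderated F test).

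Precursors of microRNAs known from other tissues were mostly at 0, as were 1242 of all 1865 precursors. Of 13 in the table, among them MIR122 of liver and MIR1-1 of muscle, 12 were at 0 in all 21 libraries. The exception was MIR142, a blood microRNA, with at most 1 read, in 2 libraries.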

How the data were processed

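Libraries of messenger RNA were strand-specific and made from RNA extracted 48 h after transfection, per the labels' protocols. The submitters' processing notes name FastQC, STAR, HOMER, DESeq2 1.14.1, R 3.3.2 and hg19. The authors deposited FPKM values for 27142 genes in 21 libraries, made by counting exon reads with HOMER, per the file headers. The authors' 4 deposited comparison tables hold a mean normalized count per gene (a signal), its log2 fold and its adjusted p-value, used only as the authors' values.

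Whole reads were recovered from the FPKM values (within 0.1, 87.6% to 100.0% of values per library, 100.0% of precursor values) and used for depth and 1 alternative. Genes at 1 FPKM or more in at least 3 libraries (13679) were fitted as log2(FPKM + 1) by limma 3.58.1 (R 4.3.3) with trended variance in 1 model over the 7 groups and 21 libraries, Benjamini-Hochberg adjustment within a comparison and a threshold of 0.05. Member minus host was fitted the same way on the difference of log2(FPKM + 0.5) over 751 nested same-strand pairs. The models were tested on simulated data. Hosts come from the table's hg19 coordinates; positions in exons and introns come from GENCODE v29 on its own GRCh38 coordinates, matched by name.

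The labels call the replicates biological and say no more, and the p-values thus reflect only how these samples vary. No library duplicated another. Named were the 4 given members, the 5 with the highest mean, up to 5 called per comparison by smallest p, up to 3 called apart from their host, the 3 highest without a host, hosts, HG transcripts and up to 4 called processing genes per comparison. Members and lists were chosen with earlier results of these data known. Alternatives were another pseudocount, filters, centring, a replicate block, voom, only the groups compared, another choice of host, and leaving out each library. Models without the array libraries, and with 1 read added to both genes, were added after seeing the data. Intervals for counting error are not given, and reads without molecular identifiers are not independent molecules.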

Additional observations from a re-analysis of the deposited data

How the results depend on the processing

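Most members are thinly covered, so counts of called members moved with the model. Without a filter 30 were called with the ANXA4 shRNA, 14 with the B4GALNT1 shRNA, 17 in NT gRNA against NT shRNA libraries and 0 between the arrays. With voom on the recovered reads the first 3 counts were 27, 13 and 11, and with only the 2 groups compared they were 81, 61 and 67, with 0 between the arrays. Without the 6 array libraries, 114 members differed over the groups, and 3 were called apart from their host with the B4GALNT1 shRNA. Leaving out 1 library gave 43 to 58 called members with the ANXA4 shRNA, 24 to 36 with the B4GALNT1 shRNA, 0 to 0 with the B4GALNT1 gRNA, 1 to 4 between the arrays, 26 to 41 between the controls and 173 to 186 over 7 groups. For calls apart from the host the ranges were 1 to 4, 0 to 2, 0 to 0, 0 to 3 and 0 to 3 in the same 5 comparisons. The cause of these shifts was not tested.

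Deviations of same-numbered replicates from their group means had correlations of -0.146 to 0.072. The labels do not say whether the numbers pair the samples. These correlations cannot settle it, since no differently numbered libraries were set beside them. With a replicate block 52, 32, 0, 2 and 36 members were called in the 5 comparisons, and calls apart from the host fell to 1 with the ANXA4 shRNA and 0 between the arrays. Over 41 single changes of named members and 1174 values under alternatives, 1092 kept direction and call, 82 kept direction without the call, and 0 reversed. Many of these directions could not reverse. Another filter, dropping the groups not compared or leaving out one of their libraries changes the p-value and not the log2 change. Members were also named partly for being called, so the absence of reversals is no measure of stability.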
